A study of Homo sapiens with 6 samples.

Results

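The genes of cholesterol synthesis considered here were HMGCS1, IDI1, FDFT1, SQLE, LSS and DHCR7, which encode enzymes, and INSIG1 and SREBF2, which encode proteins of the SREBP2 pathway that controls them. They were picked by symbol, as members of the pathway whose symbol names a probe set of the array. Of the 8 genes listed, 6 had such a probe set, out of 14884 named genes on the array. LSS and FDFT1 had no named probe set, meaning a probe set annotated with a single symbol, and were not analysed here. None of the listed genes encodes an uptake receptor, so uptake is covered below only by other genes.

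RNA of SK-CO15 cells, a human line from a colonic adenocarcinoma that grows as a polarized epithelium, was hybridized to Affymetrix Human Gene 2.0 ST arrays. The 3 Ctrl arrays (numbered 1, 4 and 9 in the sample titles) held RNA of cells transduced with a lentivirus carrying scrambled shRNA, and the 3 NHE3kd arrays (2, 3 and 10) RNA of cells that had received pooled shRNAs directed at SLC9A3, which encodes the sodium-proton exchanger NHE3. Both vectors drove the shRNA from a U6 promoter and carried EGFP and puromycin resistance, and both populations were sorted for EGFP, selected in puromycin, kept as mixed populations without cloning and harvested at confluence in medium with serum. Separate cultures for the 3 samples of each group are not stated in any source, and the p-values cover only the spread among these samples, part or all of which may be technical. SLC9A3 had no named probe set, and the knockdown was not checked on the arrays.

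The deposited values are log2 differences from the mean of the Ctrl arrays, so a value of 0 is the Ctrl mean and negative values are dimmer signals. The base of the logarithm is the one RMA uses and is not stated in the sources used here, and folds rest on it. The expression level itself is not in the values, and genes can be compared only by their differences. In RNA from whole cultures, fewer cells that express a gene and less RNA per cell cannot be told apart. Centred values hold no level either by which the labelled cell type could be checked. Of 10 measured markers of colonic epithelium, VIL1 was higher in NHE3kd cells (log2 fold change 0.77, SE 0.04, limma's adjusted p 0.0017) and 9 did not pass the test. Among these 9, KRT20 had the largest change, in the other direction (-0.86, SE 0.22, limma's adjusted p 0.081). Of the 10 log2 fold changes 4 lay below 0 and 6 above. Higher calls made up 10% of them, against 9.96% of all named genes. Of 7 measured markers of other cell types, CD68 was lower (-1.51, SE 0.18, limma's adjusted p 0.0095) and 6 did not pass.

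Cholesterol is built from acetyl-CoA through mevalonate, isopentenyl diphosphate, farnesyl diphosphate, squalene and lanosterol. The enzymes of this route are switched on together by the transcription factor SREBP2, which is held in the endoplasmic reticulum by INSIG proteins when sterols are plentiful and is released to the nucleus when they are scarce. At the promoters of its target genes SREBP2 works with the factors NF-Y and Sp1, which bind CCAAT and GC-rich boxes. In the colon, as in other epithelia, cholesterol and the isoprenoids of the same route serve membranes, protein prenylation and growth.

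The promoters of the measured genes are shown because these genes are known to share regulators, and because the values of 5 of them, all but SREBF2, moved together from array to array, as described further below. Promoter windows (250 bases before to 50 after a RefSeq transcription start, GRCh38.p14) were at hand for 5 of the 6 measured genes, in 9 windows. Each stretch lies just upstream of a start, on the gene's strand. Capitals mark a match to CCAAT, CACNCCAC or TCACNCCAC on either strand, so that CCAAT on the other strand reads ATTGG. Where a gene had several windows, the stretch is from that with the most matches, among windows with no other start close upstream. Stretches were thus picked for their matches, and the other windows are not shown. The HMGCS1 stretch is chr5:43313498-43313577 (minus strand), that of IDI1 chr10:1049222-1049344 (minus), that of DHCR7 chr11:71448427-71448497 (minus), that of INSIG1 chr7:155297660-155297722 (plus) and that of SREBF2 chr22:41832962-41833013 (plus).
HMGCS1: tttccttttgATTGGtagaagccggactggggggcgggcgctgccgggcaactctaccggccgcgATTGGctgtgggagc
IDI1: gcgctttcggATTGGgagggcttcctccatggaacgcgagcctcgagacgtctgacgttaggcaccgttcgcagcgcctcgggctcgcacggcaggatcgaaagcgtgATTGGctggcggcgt
DHCR7: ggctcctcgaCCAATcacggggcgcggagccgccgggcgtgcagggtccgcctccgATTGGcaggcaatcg
INSIG1: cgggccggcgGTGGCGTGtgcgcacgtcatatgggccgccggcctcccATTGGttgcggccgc
SREBF2: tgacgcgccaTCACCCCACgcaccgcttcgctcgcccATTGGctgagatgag

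A CCAAT box was present in all 5 genes and in 6 of their 9 windows, and in 34.6% of all 35116 promoter windows. The sterol element TCACNCCAC was found in SREBF2 alone, in 1 of the 9 windows, and in 1.13% of all windows. The shorter CACNCCAC, which lies within TCACNCCAC, was added after the sequences had been seen. CACNCCAC was found in 1 window each of SREBF2, INSIG1 and IDI1, and in 5.87% of all windows. That of IDI1 lies in a window not shown above. GGGCGG, a box bound by Sp1, was present in all 5 genes and in 8 of their 9 windows, and in 45.0% of all windows. These matches describe letters in the windows and do not show that a factor binds there.

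Among the 6 measured genes, only HMGCS1 was differentially expressed at an adjusted p under 0.05, and it was lower in NHE3kd cells. The log2 fold changes of the other 5 were all below 0 but did not pass the test. Lower calls were made for 4.51% of all named genes and higher calls for 9.96%. Over all 48144 probe sets, 8.74% were called in either direction, 3.09% as lower and 5.65% as higher. The median log2 fold change was -0.81 over the 6 genes and -0.00082 over all named genes.

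HMGCS1 encodes the cytosolic HMG-CoA synthase, which makes HMG-CoA, the precursor of mevalonate. Its log2 values were -0.18, -0.0049 and 0.19 on Ctrl 1, 4 and 9 and -1.70, -1.24 and -0.94 on NHE3kd 2, 3 and 10. Every NHE3kd array lay far below every Ctrl array. HMGCS1 was 2.45-fold lower in NHE3kd cells (log2 fold change -1.29, SE 0.21, 95% interval -1.82 to -0.77, limma's adjusted p 0.022). The call was lost without Ctrl 4 (limma's adjusted p 0.082), Ctrl 9 (0.057) or NHE3kd 3 (0.083). It was also lost after quantile normalization (0.14), where the log2 fold change was -0.86. Over 15 alternatives the adjusted p of HMGCS1 ranged from 0.0079 to 0.60.

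SQLE encodes squalene epoxidase, which adds the first oxygen to squalene and is a rate-limiting enzyme of the sterol branch. Its log2 values were -0.34, -0.35 and 0.69 in Ctrl and -1.34, -1.09 and -0.51 in NHE3kd, in the same order of arrays. The groups did not overlap, but Ctrl 9 stood about 1 log2 unit above the other Ctrl arrays and NHE3kd 10 came close to Ctrl 1 and 4. The log2 fold change of SQLE was -0.98 (SE 0.36, 95% interval -1.87 to -0.086, limma's adjusted p 0.19).

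DHCR7 encodes the reductase of the last step to cholesterol. It measured -0.36, -0.14 and 0.50 in Ctrl and -1.21, -0.99 and -0.38 in NHE3kd. Ctrl 1 and NHE3kd 10 almost met, and the groups did not overlap. The log2 fold change was -0.86 (SE 0.30, 95% interval -1.61 to -0.11, limma's adjusted p 0.18).

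IDI1 encodes the isomerase that turns isopentenyl diphosphate into dimethylallyl diphosphate, the starter of isoprenoid chains. Its log2 values were -0.38, -0.36 and 0.73 in Ctrl and -1.01, -0.88 and -0.30 in NHE3kd. NHE3kd 10 lay above Ctrl 1 and 4, so the groups overlapped. The log2 fold change was -0.73 (SE 0.36, 95% interval -1.63 to 0.17, limma's adjusted p 0.34).

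INSIG1 encodes the protein that retains the SREBP escort protein in the endoplasmic reticulum, and its gene is itself a target of SREBP2. It measured -0.18, -0.035 and 0.22 in Ctrl and -1.17, -0.82 and -0.30 in NHE3kd. The groups did not overlap, and the NHE3kd arrays were more spread than the Ctrl arrays. The log2 fold change was -0.76 (SE 0.23, 95% interval -1.35 to -0.18, limma's adjusted p 0.13). Without NHE3kd 10 INSIG1 passed the test (limma's adjusted p 0.047), and over 15 alternatives its adjusted p ranged from 0.017 to 1.

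SREBF2 encodes SREBP2. Its values stayed within a narrow range, at 0.058, -0.043 and -0.015 in Ctrl and -0.0085, -0.18 and -0.068 in NHE3kd. The groups overlapped, and neither Ctrl 9 nor NHE3kd 10 was set apart. The log2 fold change was -0.085 (SE 0.06, 95% interval -0.22 to 0.053, limma's adjusted p 0.49). The array measures the transcript and not the cleaved, active protein.

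The NHE3kd arrays all lay below the Ctrl arrays for 4 of the 6 genes (HMGCS1, SQLE, DHCR7 and INSIG1), which was the case for 14.7% of all named genes. For each of these 4 a two-sided exact permutation test over the arrays gave p = 0.10, below which this number of arrays cannot go, and for IDI1 and SREBF2 it gave p = 0.30.

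**Figure D1:**
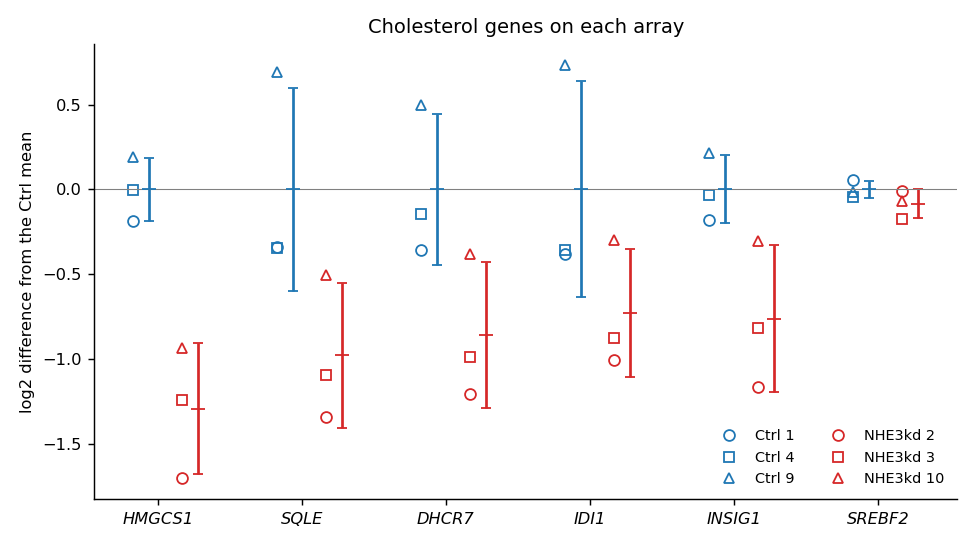
Log2 difference from the Ctrl mean for the 6 measured genes, with 1 symbol per array (blue, Ctrl; red, NHE3kd) and the mean and SD of each group (n = 3) beside the symbols. Triangles mark Ctrl 9 and NHE3kd 10, which were the highest array of their group for every gene except SREBF2.

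Along the whole route, 17 of 24 listed enzymes and partner proteins were measured. HMGCS1 was lower, LBR was higher and 15 did not pass the test, while 14 of the 17 log2 fold changes lay below 0. The median was -0.33, against -0.00082 over all named genes. Lower and higher calls each made up 5.88% of the 17, against 4.51% and 9.96% of all named genes. The early steps had log2 fold changes of -0.33 for ACAT2 (acetyl-CoA acetyltransferase), -0.12 for the kinase MVK, 0.43 for the next kinase PMVK and -0.78 for the decarboxylase MVD. The farnesyl diphosphate synthase FDPS had a value of -0.14. Among enzymes after lanosterol, MSMO1 (C4-methyl oxidation) had a value of -0.62, EBP (the sterol isomerase) -0.42, NSDHL -0.39, HSD17B7 -0.31 and TM7SF2, a sterol reductase gene of 11q13, -0.20. These genes, none of which passed the test, were named after their values had been seen.

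LBR, which encodes an inner nuclear membrane protein that binds lamin B and also carries sterol C14-reductase activity, went the other way. It measured 0.016, -0.074 and 0.057 in Ctrl and 0.99, 1.14 and 0.99 in NHE3kd. The arrays of each group lay close together, with a wide gap between the groups. LBR was 2.06-fold higher in NHE3kd cells (log2 fold change 1.04, SE 0.06, limma's adjusted p 0.0018). It remained called without any single array, with limma's adjusted p at most 0.013.

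**Figure D2:**
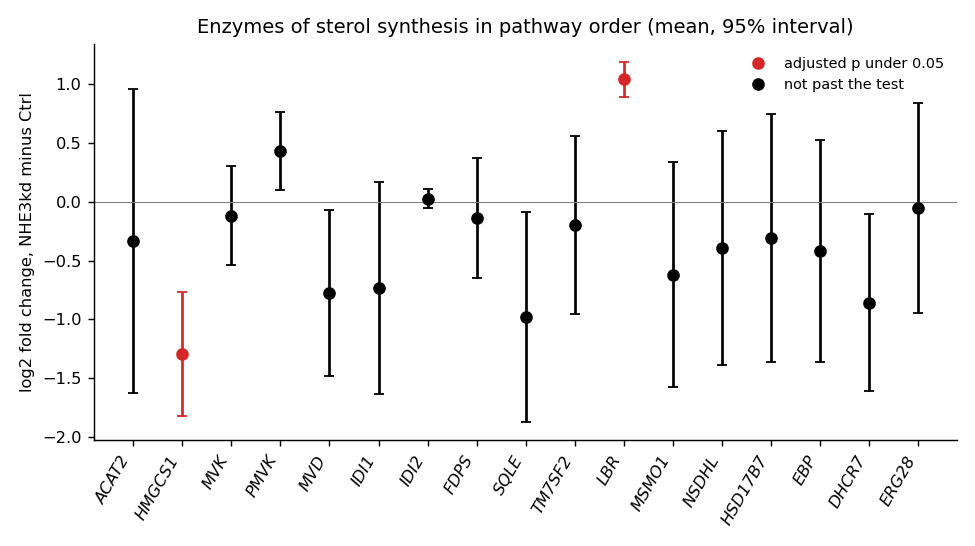
Log2 fold change (NHE3kd minus Ctrl) with its 95% interval for the 17 measured genes of mevalonate and sterol synthesis, placed in the order of the listed pathway. Red marks the genes past the test: HMGCS1 at -1.29 and LBR at 1.04, whose interval is much narrower than those of most other enzymes.

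Of 16 listed genes that control SREBP, 10 were measured, 1 was higher, 1 was lower and 8 did not pass. Their median log2 fold change was -0.21. Among all named genes 9.96% were called higher and 4.51% lower. ERLIN1, which encodes an endoplasmic reticulum protein that restrains SREBP, was higher (0.56, SE 0.06, limma's adjusted p 0.0072). Its values were -0.0093, 0.0094 and -0.000095 in Ctrl and 0.50, 0.48 and 0.68 in NHE3kd, far apart. PAQR3, a Golgi protein that tethers the SREBP escort complex, was lower (-0.68, SE 0.10, limma's adjusted p 0.019). PAQR3 measured 0.22, -0.11 and -0.11 in Ctrl and -0.69, -0.61 and -0.76 in NHE3kd. ERLIN1 remained called without any single array, but not without moderation of the variances (adjusted p 0.051), with unequal variances (0.21) or against 1.5-fold (1), a range of 0.0041 to 1 over 15 alternatives. PAQR3 lost the call without any single NHE3kd array (limma's adjusted p up to 0.065). The escort protein gene SCAP (0.11, limma's adjusted p 0.61) and SREBF1, which encodes SREBP1 (-0.26, limma's adjusted p 0.26), did not pass.

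For uptake and transport inside the cell, 11 of 20 listed genes were measured. Only LRP2 passed, a large endocytic receptor of absorptive epithelia that binds lipoproteins among many other ligands. LRP2 measured 0.22, 0.056 and -0.27 in Ctrl and 1.93, 1.97 and 1.84 in NHE3kd. It was 3.76-fold higher in NHE3kd cells (log2 fold change 1.91, SE 0.13, limma's adjusted p 0.0026) and remained called without any single array, but not after quantile normalization (limma's adjusted p 0.052) or with unequal variances (0.15). Over 15 alternatives its adjusted p ranged from 0.0012 to 0.15. The median of the 11 genes was -0.093. Higher calls made up 9.09% of them, against 9.96% of all named genes.

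Among genes of efflux, storage and LXR, the receptor that senses oxysterols, 8 of 20 were measured, without ABCA1, and 0 passed limma's test (3 at an unadjusted p under 0.05, which 32.5% of all named genes had). Among 18 of 21 genes of fatty acid synthesis, which SREBP1 controls, 0 passed (2 at an unadjusted p under 0.05, a smaller share than among all named genes), with 12 values below 0 and a median of -0.24. Of 6 measured genes that use isoprenoids, out of 17 listed, ICMT was higher (0.64, SE 0.12, limma's adjusted p 0.029). Its values were -0.19, -0.048 and 0.24 in Ctrl and 0.55, 0.68 and 0.69 in NHE3kd, without overlap. ICMT encodes the methyltransferase of prenylated proteins, and its call depended on every array other than Ctrl 9 (adjusted p up to 0.11 with 1 of them left out). Over the 6 groups together, 4 of 70 measured genes were higher (5.71%, against 9.96% of all named genes) and 2 were lower (2.86%, against 4.51%). These counts were 2 and 0 without moderation of the variances, 0 and 0 when the groups were also allowed unequal variances, and 2 and 0 after quantile normalization or when each change was tested against 1.5-fold.

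The sterol enzymes differed between arrays of the same group more than most genes did. The standard deviation between arrays within groups was 0.52 for SQLE and IDI1, 0.44 for DHCR7, 0.34 for INSIG1 and 0.30 for HMGCS1, against 0.07 for SREBF2. The median over all named genes was 0.11. The first 5 thus lay at percentiles 96.5 to 99.4 of the named genes, and SREBF2 at percentile 30.0. For the 17 genes of the route the median was 0.44, with a range from 0.027 (IDI2) to 0.75 (ACAT2).

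**Figure D3:**
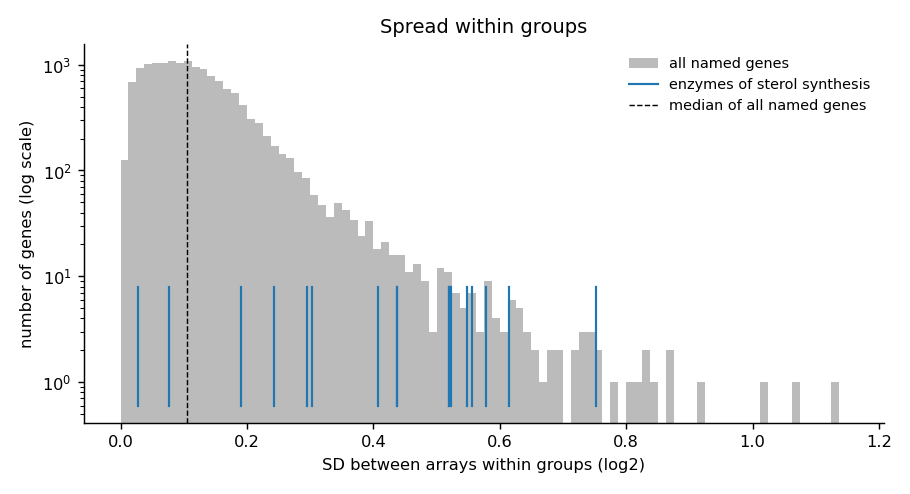
Number of named genes (log scale) by standard deviation between arrays within groups, on the log2 scale. Blue lines mark the 17 measured genes of sterol synthesis, of which most lie in the right tail, and the dashed line marks the median of all named genes, 0.11.

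This spread had the same direction for most of these genes. Ctrl 9 exceeded the mean of Ctrl 1 and 4 by 1.10 for IDI1, 1.03 for SQLE, 0.75 for DHCR7, 0.32 for INSIG1 and 0.28 for HMGCS1. NHE3kd 10 exceeded the mean of NHE3kd 2 and 3 by 0.65, 0.71, 0.72, 0.69 and 0.54 for the same genes. For SREBF2 the differences were -0.022 and 0.025. Deviations from the group means correlated between the 5 genes other than SREBF2 with r from 0.74 to 0.99 (median 0.90 over 10 pairs). Pairs with SREBF2 had r from -0.50 to -0.12. These correlations rest on 6 arrays that all genes share and are given as a description.

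Of the 17 genes of the route, 14 had both differences above 0, which held for 31.7% of all named genes. Both exceeded 0.3, a limit set after the values had been seen, for 12 of the 17, against 2.39% of all named genes. The 5 others were HMGCS1, MVK, PMVK, IDI2 and LBR. Among the 12, the differences were largest for ACAT2 on Ctrl 9 (1.57) and for HSD17B7 on NHE3kd 10 (1.14). MSMO1 had 0.99 and 0.93 on these arrays, NSDHL 1.22 and 0.68, and EBP 1.22 and 0.54.

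Other genes of lipid metabolism had the same pattern. INSIG2, the second INSIG gene (0.44 and 0.76), STARD4, a sterol carrier (0.61 and 0.54), and TMEM97, a regulator of the lysosomal cholesterol transporter (1.37 and 0.62), exceeded 0.3 on both arrays, as did VLDLR and LPCAT3. So did 7 of 18 genes of fatty acid synthesis, namely ACSS2 (1.06 and 0.84), ACLY, FASN, FADS1, FADS2, LPIN1 and PNPLA3. In the group of isoprenoid use it was 0 of 6. The medians over all named genes were 0.0092 on Ctrl 9 and 0.011 on NHE3kd 10. What set Ctrl 9 and NHE3kd 10 apart from the other arrays was not tested.

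**Figure D4:**
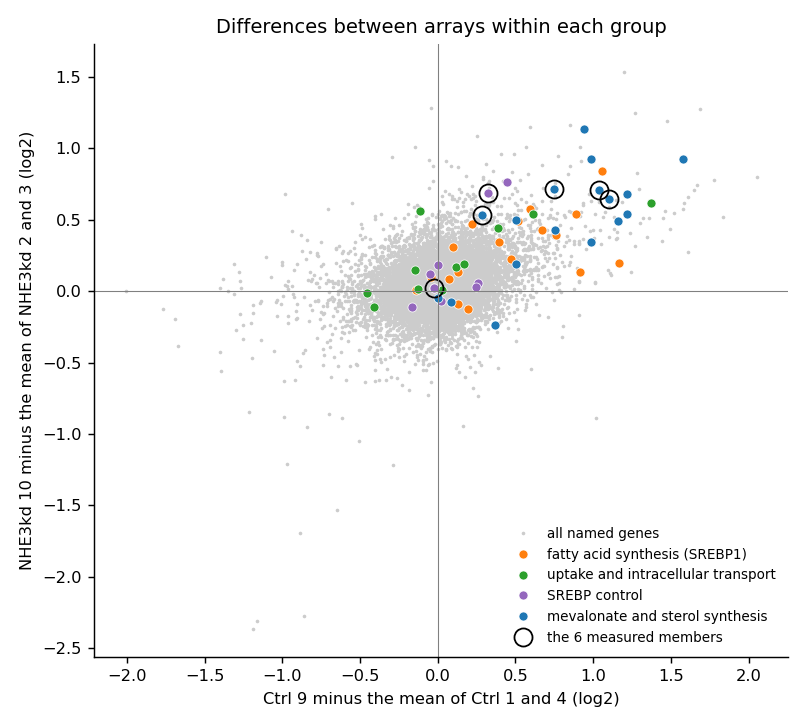
For each named gene, the difference of Ctrl 9 from the mean of Ctrl 1 and 4 (horizontal axis) against that of NHE3kd 10 from the mean of NHE3kd 2 and 3 (vertical axis), both on the log2 scale. Most genes of sterol synthesis (blue) lie at the upper right of the grey cloud, and rings mark the 6 measured genes, of which SREBF2 sits at the origin.

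Promoters of the genes with this pattern were compared for the boxes shown above. Of the 12 genes over 0.3 on both arrays, 10 had a promoter window and all 10 held CCAAT, including the stretches printed for IDI1 and DHCR7. Of the 5 others, all had a window, and 2 (HMGCS1 and MVK) held CCAAT. Over all 27305 genes with a window the share was 39.7%. GGGCGG was in 9 of the 10 and in 3 of the 5, against 48.3% of all genes, and CACNCCAC was in 1 of the 10 (IDI1) and 0 of the 5, against 7.05%. TCACNCCAC was in none of these 15 genes, and no match says only that these letters are absent from the window. The limit of 0.3 that split these genes was set after the values had been seen. HMGCS1 missed it through Ctrl 9 alone (0.28) and MVK through NHE3kd 10 alone (0.19). The shares on either side are a description and do not tie a box to the pattern.

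Because Ctrl 9 and NHE3kd 10 entered both sides of the comparison, the difference between groups was also taken without them and with the sample number of the titles as a covariate. Both were chosen after the data had been seen, and no source says what the numbers stand for. Without the 2 arrays the log2 fold changes were -1.38 for HMGCS1, -0.87 for SQLE, -0.85 for DHCR7, -0.58 for IDI1, -0.88 for INSIG1 and -0.10 for SREBF2. SQLE and IDI1 passed limma's test (adjusted p 0.038 and 0.037), while HMGCS1 did not (0.051), nor did DHCR7 (0.054) and INSIG1 (0.069). Lower calls were then made for 3.2% of all named genes. SQLE and IDI1 had already been seen to stand apart on these 2 arrays. Their smaller standard errors were therefore built into leaving the arrays out. The share is no fair reference for the measured genes, and these calls add no separate evidence of a group difference.

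With the number as a linear covariate, 5 of the 6 genes passed as lower, and the share among all named genes was 5.68%. The covariate was not chosen on the values of all named genes, so this share is no fair reference for the 5 genes. The log2 fold changes of the 5 genes were -1.32 for HMGCS1 (SE 0.12, limma's adjusted p 0.0079), -1.02 for SQLE (SE 0.14, 0.020), -0.89 for DHCR7 (SE 0.06, 0.0047), -0.79 for INSIG1 (SE 0.10, 0.017) and -0.77 for IDI1 (SE 0.16, 0.0496). SREBF2 did not pass (-0.084, 0.53). The sizes were close to those without the covariate and the standard errors of these 5 genes were smaller. That decrease was built into the choice of covariate. These genes had already been seen to be highest, within each group, on the array with the highest number. Along the route MVD (-0.80) and MSMO1 (-0.66) also passed, so that 6 of 17 genes were lower and LBR alone was higher. For the same reason the lower calls made with the covariate are a description and add no separate evidence of a group difference. Over 15 alternatives the adjusted p ranged from 0.020 to 1 for SQLE, from 0.0047 to 1 for DHCR7 and from 0.037 to 1 for IDI1.

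**Figure D5:**
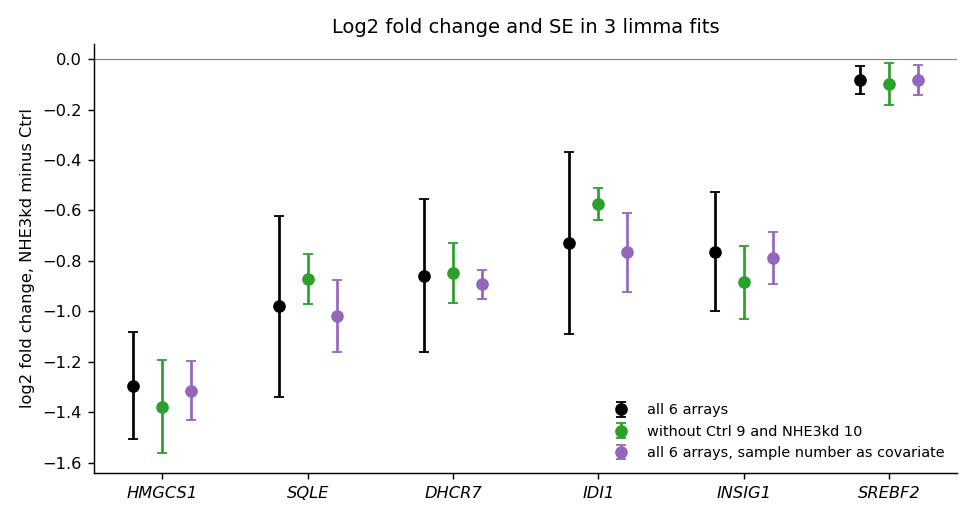
Log2 fold change (NHE3kd minus Ctrl) with its standard error for the 6 measured genes from limma with all 6 arrays (black), without Ctrl 9 and NHE3kd 10 (green) and with the sample number as a covariate (purple). For HMGCS1, SQLE, DHCR7, IDI1 and INSIG1 the standard error is smaller without these arrays and with the covariate, and SREBF2 stays near 0 in each.

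The 5 other named genes whose values over the 6 arrays correlated most closely with the mean of the 6 genes were ZNF773, ZNF718, CDA, S1PR2 and DMKN (Pearson's r from 0.993 to 0.997). Of these only CDA, which encodes cytidine deaminase, differed as much as HMGCS1, SQLE, DHCR7, IDI1 and INSIG1. Its log2 fold change was -1.50 (SE 0.41, limma's adjusted p 0.093). CDA also differed by 0.91 on Ctrl 9 and by 1.01 on NHE3kd 10 from the other arrays of its group. For ZNF773 the log2 fold change was -0.10, and for the remaining 3 it lay between -0.37 and -0.33. The correlation is a description over arrays that all genes share.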

How the data were processed

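The authors summarized probe signals with the RMA16 algorithm of GeneSpring GX (version not given in the sources used), subtracted the mean of the Ctrl arrays and deposited the result as log2 values. The submitters' processing notes name the build hg19. No probe set had a Ctrl mean further than 1.27e-06 from 0, so centring on Ctrl is settled and NHE3kd values are differences from Ctrl. The base of the logarithm was taken as that of RMA output and was not checked, and levels are unknown and no filter on dim signals was possible. Column medians ranged from -0.018 to 0.0018.

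Probe sets were named through the platform annotation, updated to RefSeq symbols (GRCh38.p14). Of 48144 probe sets, 16098 had 1 symbol and were used as named probe sets. The other 32046 had no symbol or several, which were not counted apart. Each measured member had 1 probe set, and probe sets of other genes were averaged. Groups were compared in R 4.3.3 with limma 3.58.1 (two-sided, no covariates, all 6 arrays, Benjamini-Hochberg over all probe sets, threshold 0.05), which was tested on simulated data. A gene's mean was tested with the prior of the fit over probe sets and placed on its adjustment curve.

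The members, the lists and the rule for named genes (the members, 6 regulators fixed by name, the called genes of each list and the 5 genes most like the members) were chosen with earlier results of these data known. The alternatives were an unmoderated t-test, Welch's test, array weights, median scaling, quantile normalization, named probe sets only, a test against 1.5-fold and each array left out, and, after seeing the data, Ctrl 9 and NHE3kd 10 left out together and the sample number as a covariate. Some genes had no named probe set and were not analysed here. The number of arrays limits the precision.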

Additional observations from a re-analysis of the deposited data

How the results depend on the processing

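No paired analysis was possible because the groups share no sample number and no source pairs their samples (adjacent numbers were not taken as pairs). All log2 fold changes of the 6 measured genes stayed below 0 under 15 alternatives. Some alternatives could not change them, because they alter only the test or the adjustment. These were the unmoderated t-test, Welch's test, the test against 1.5-fold and named probe sets only. The count of members called lower, 1 in the main comparison, was 0 by Welch's test, by an unmoderated t-test, after quantile normalization and when tested against 1.5-fold. It ranged from 0 to 2 when each array was left out in turn, was 2 without Ctrl 9 and NHE3kd 10 together, and was 5 with the sample number as a covariate. The count of members called higher was 0 throughout. Of the 70 pathway genes, 4 were called higher (5.71%, against 9.96% of all named genes) and 2 lower (2.86%, against 4.51%). Higher calls were 2 with an unmoderated t-test, after quantile normalization and against 1.5-fold, 0 with Welch's test, and 3 to 7 with an array left out. Lower calls were 0 under each of these 4 alternatives, 0 to 5 with an array left out, 5 without Ctrl 9 and NHE3kd 10, and 14 with the covariate. All probe sets called were 4206, and 5 by Welch's test, 840 by an unmoderated t-test, 478 after quantile normalization, 176 against 1.5-fold, 2024 without Ctrl 9 and NHE3kd 10, and 1685 to 3682 with an array left out. With named probe sets only, a smaller table, they were 2871. Leaving out NHE3kd 3 (1685), Ctrl 4 (1916) or NHE3kd 10 (2449) moved this count by over 1.5 times. After quantile normalization, which gives all arrays 1 averaged distribution and so widens the Ctrl arrays and narrows the NHE3kd arrays, the log2 fold changes were -0.86 for HMGCS1, -0.44 for SQLE and -0.25 for IDI1. The values were centred on Ctrl, and the SD over all probe sets was 0.10 to 0.14 on Ctrl arrays and 0.31 to 0.33 on NHE3kd arrays. How far the lost calls follow from this step was not tested. HMGCS1 also lost its call on the unchanged values. Its adjusted p was 0.10 by an unmoderated t-test, 0.22 by Welch's test and 0.60 by limma's test against 1.5-fold. The share of promoter windows with TCACNCCAC was 1.13%, and 0.883% in the 250 bases before the start, and that of CACNCCAC was 5.87%. A comparison of single probe sets was not run, because each measured gene had 1 probe set. The causes of these shifts were not tested.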
